A study of Bos taurus with 15 samples.

Results

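Oocytes of the bovine dominant follicle (DF) collected 19-23 h after oestrus detection (T2, T2.1 to T2.4) were compared with those collected 24 h before ovulation (T1, T1.1 to T1.6). The comparison covers 10 of the 15 DF oocytes whose transcripts were sequenced, 6 in T1 and 4 in T2, chosen by their collection time alone, and the 5 oocytes collected 2 h before ovulation were not used. Each oocyte came from a different animal. The donors were crossbred nulliparous beef heifers, all synchronised with a gonadotrophin-releasing hormone (GnRH) analogue, a progesterone-releasing intravaginal device and a prostaglandin F2a analogue, and slaughtered on consecutive days of the protocol, T1 before T2. A subgroup of the animals slaughtered on the later day received a second dose of GnRH, and the wording of the study's methods does not settle whether any T2 donor belonged to it. Sample titles place T2 oocytes 19 to 23 h before ovulation, while the treatment labels, the descriptions and the study's methods count the 19-23 h from the detection of oestrus, and the second reading was followed. The time from T2 collection to ovulation is not stated plainly either. The groups thus differ in collection day, in the event that the time was counted from and possibly in the second GnRH dose, and these cannot be told apart. The animals came from more than 1 trial, and the trial of each oocyte is not given in the sources used here.

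A fully grown oocyte has largely stopped transcription and lives on stored maternal messenger RNA. When the luteinising hormone surge releases it from arrest, the nucleus breaks down, a spindle forms and meiosis runs to its second metaphase, while stored transcripts are translated or degraded. Both fates are tied to the poly(A) tail, which is lengthened on transcripts that are recruited to ribosomes and shortened on those that are silenced or decay. The libraries were made with Smart-seq2 from RNA captured by its poly(A) tail, so a change in tail length and a change in the number of transcripts cannot be told apart in these values.

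Total counts ranged from 824854 to 4894970 in T1 and from 1071109 to 2851791 in T2. The oocyte T1.4 is not among the 11 DF oocytes for which the study lists library statistics. It had a total of 2874041 counts and 7071 genes with more than 1 count, the lowest number of genes among these 10 oocytes, so each main result was computed with and without it. Reads carry no molecular identifiers, and depth limits the low levels most. Levels are given as log2 CPM, the counts (CPM) relative to the TMM-scaled total with a prior count of 2, on which a gene without a count lies at -0.31. Symbols were available only for genes that the study listed as differing between DF oocytes and a set of fully grown oocytes chosen by diameter. Of the 8748 genes tested, 1515 (17.3%) could be named in this way, and the named genes are therefore a selection made partly on these same oocytes.

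No gene passed the test between T2 and T1 (edgeR quasi-likelihood test with Benjamini-Hochberg adjustment, 0 of 8748 genes called, 0%), and the smallest adjusted p was 0.113. At an unadjusted p under 0.05, 780 genes (8.92%) had lower and 279 genes (3.19%) had higher levels in T2. Other tests of the same counts called more genes. The likelihood ratio test of edgeR called 349 genes lower and 22 higher, and DESeq2 called 527 lower and 22 higher. Without T1.4 the quasi-likelihood test also called 0 genes, with a smallest adjusted p of 0.187 over 8494 genes. At an unadjusted p under 0.05 it then gave 780 lower genes, 654 of which were among the 780 found with 10 oocytes, and 310 higher genes, of which 227 were among the 279. All 4 T2 oocytes lay below all 6 T1 oocytes for 178 genes (2.03%) and above them for 154 genes (1.76%). With T1.4 left out of the same levels, where such counts can only rise, these were 225 genes (2.57%) and 193 genes (2.21%). The fold changes were unequal in size. The median log2 fold change was -2.68 over the 780 lower genes and 1.26 over the 279 higher genes, beside -0.03 over all genes tested.

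**Figure D1:**
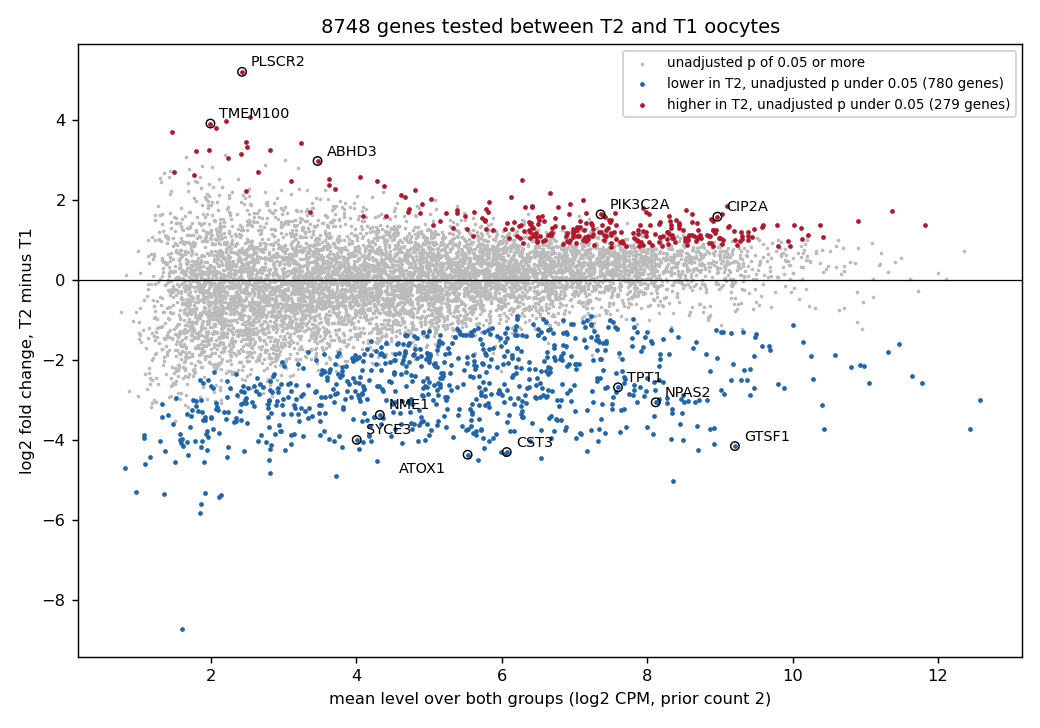
Log2 fold change (T2 minus T1, y axis) of 8748 genes against their mean level over both groups (log2 CPM, x axis), with the 780 lower and 279 higher genes at an unadjusted p under 0.05 in colour and 12 of the named genes circled. The lower genes reach across the whole range of levels and farther from 0 than the higher genes, most of which lie within 2 log2 units of 0.

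The ranking was led by genes with lower levels in T2. Of the first 100 genes by p, 92 had lower and 8 had higher levels in T2. Those 100 comprised 16 cytosolic ribosomal protein genes, 7 genes of the respiratory chain and ATP synthase, 35 other genes with a symbol and 42 without one. The 16 and the 7 all had lower levels in T2, as did 34 of the 35 others. Among the 1457 named genes that are neither ribosomal protein nor respiratory chain genes, 121 had lower and 30 had higher levels at an unadjusted p under 0.05, which is 8.30% and 2.06% of them, beside 8.92% and 3.19% over all genes. An unnamed gene, ENSBTAG00000005654, ranked second. It had 5.37, 6.38, 6.62 and 6.81 log2 CPM in the T2 oocytes, and a lowest, median and highest level of 8.25, 10.26 and 12.87 in T1, and was singled out after its values were seen.

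The T1 oocytes were not alike in the genes behind this ranking. Over the 780 lower genes the median level was 7.65 log2 CPM in T1.2, 7.40 in T1.4 and 7.37 in T1.5, against 5.83 in T1.3, 5.44 in T1.6 and 4.59 in T1.1. The T2 medians were 3.72, 4.49, 4.51 and 4.76, so T1.1 lay inside the T2 range and the other 5 above it. T1.1 was the lowest T1 oocyte for 471 of these genes, and T1.2, T1.4 and T1.5 were the highest for 369, 206 and 176. Over all genes tested the medians were similar, from 4.47 to 5.04 in T1 and from 4.72 to 4.79 in T2. The same 3 oocytes also had the largest shares of their counts in their 100 most abundant genes, 40.8% in T1.2, 38.4% in T1.4 and 32.7% in T1.5, against 18.7% to 25.3% in the other T1 oocytes and 21.4% to 22.8% in T2. Some of the lower genes are themselves among those 100, and the part of this share in the result was not tested. Without T1.1 the quasi-likelihood test called 334 genes lower and 63 higher. Leaving out any other single oocyte gave 0 calls.

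**Figure D2:**
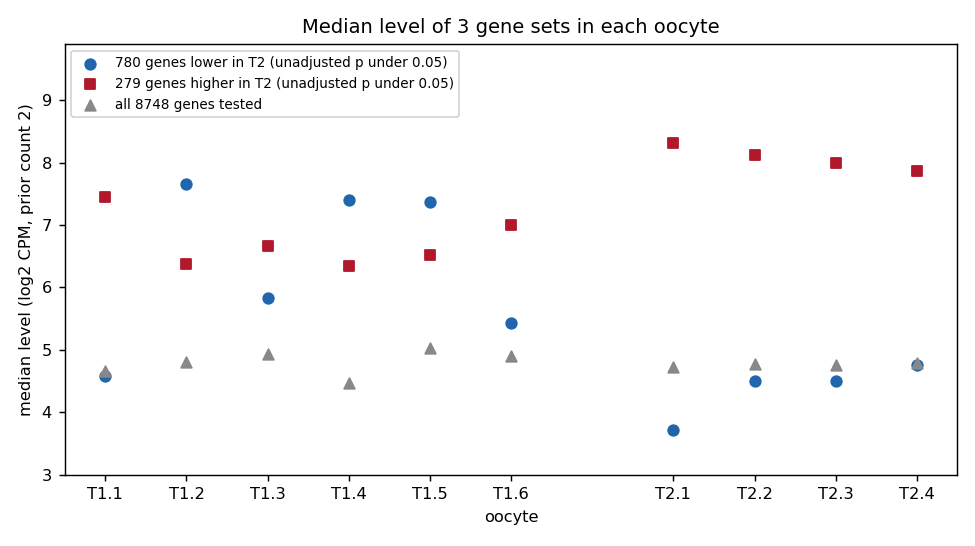
Median level (log2 CPM, y axis) in each of the 10 oocytes (x axis) of the 780 lower genes, the 279 higher genes and all 8748 genes tested. The lower genes stand at 7.37 to 7.65 in T1.2, T1.4 and T1.5 and at 3.72 to 4.76 in T2, with T1.1 at 4.59. These sets were chosen by the same difference that the plot displays.

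Spread differed between the groups as well as level. The median SD over genes was 1.38 log2 CPM in T1 and 0.602 in T2, and 86.2% of genes had the larger SD in T1. Without T1.4 the median SD in T1 was 1.13 and the share was 80.6%. For 50.0% of genes the whole T2 range lay inside the T1 range. This difference in spread was not tested.

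The 15 lower genes with the smallest p are described by the roles of their products and not in rank order. CST3 encodes cystatin C, an inhibitor of cysteine proteases, and ranked first of all genes. It had 4.68, 4.36, 3.52 and 4.56 log2 CPM in T2, while the T1 oocytes had 5.62 at the lowest, 7.94 at the median and 9.60 at the highest. Every T2 oocyte was below every T1 oocyte, and the log2 fold change was -4.30 ± 0.86 (SE, adjusted p = 0.113 by the edgeR quasi-likelihood test). NME1 and NME2 encode nucleoside diphosphate kinases, which make nucleoside triphosphates. NME2 had 5.43, 6.04, 5.78 and 5.95 log2 CPM in T2 and ran from 6.94 through a median of 8.91 to 10.54 in T1. NME1 had 2.98, 2.54, 3.67 and 2.25 in T2 and ran from 4.58 through 5.61 to 7.16 in T1. Neither gene overlapped between the groups, and as close relatives in sequence they may share reads. TPT1, the translationally controlled tumour protein, is an abundant growth-related transcript in most cells. Its T2 levels were 5.37, 6.62, 6.57 and 6.90 log2 CPM, and its T1 levels ran from 7.66 through 8.59 to 10.08. With no overlap, TPT1 and NME1 reached the smallest p that an exact two-sided permutation test of 6 against 4 oocytes gave here (exact p = 0.00476 of 210 orders, both genes unadjusted). Both had been picked by a small p for this same difference, so the exact p adds no separate support. PSMG4, a chaperone of proteasome assembly, had the largest log2 fold change of the 15 ranked lower genes, -4.50 ± 1.07. Its T2 levels of 2.81, 4.08, 4.07 and 4.85 overlapped with T1, where T1.1 had 4.18.

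Copper handling and the mitochondrial inner membrane were represented by ATOX1, COX17 and ROMO1. ATOX1 carries copper to the secretory pathway. It had 3.27, 3.35, 4.17 and 4.30 log2 CPM in T2, and 4.93, 7.34 and 9.69 as the lowest, median and highest level in T1. COX17 hands copper to cytochrome c oxidase during its assembly. Its levels were 3.62, 4.36, 5.21 and 5.18 in T2 and ran from 5.56 through 7.79 to 9.89 in T1. ROMO1 is a small inner membrane protein linked to reactive oxygen species. It had 4.68, 5.73, 6.24 and 6.33 in T2 and ran from 6.67 through 9.16 to 11.09 in T1. None of the 3 overlapped between groups, and their log2 fold changes were -4.37 ± 0.92, -3.78 ± 0.90 and -4.03 ± 0.95 (SE).

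Another 3 of the 15 act in the secretory and endosomal pathways. RABAC1 binds prenylated Rab proteins at the Golgi, STX8 is a syntaxin of late endosomes, and SSR4 is a subunit of the translocon-associated complex of the endoplasmic reticulum. STX8 had 3.62, 5.54, 5.04 and 5.33 log2 CPM in T2 and ran from 5.89 through 7.83 to 9.29 in T1, without overlap. RABAC1 had 3.13, 3.14, 3.85 and 3.56 in T2, and in T1 only T1.1, at 3.36, reached these levels. SSR4 was almost level in T2, at 4.99, 5.00, 4.87 and 5.08, and T1.1, at 4.97, lay among them while the other T1 oocytes had 6.23 to 9.31. LGALS1, the beta-galactoside-binding lectin galectin-1, had the same form, with 2.61, 3.57, 3.19 and 3.61 in T2, 3.54 in T1.1 and 5.47 to 8.08 in the other T1 oocytes.

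Germ cell genes and a circadian regulator were also among the 15. GTSF1 is a germ cell zinc finger protein that works with Piwi proteins in transposon silencing. It had 6.63, 8.01, 7.71 and 7.72 log2 CPM in T2 and ran from 8.49 through 11.18 to 12.91 in T1, a log2 fold change of -4.15 ± 0.92 (SE). SYCE3 is part of the central element of the synaptonemal complex, which holds homologous chromosomes together in early meiotic prophase. Its levels were 2.12, 2.62, 3.19 and 1.58 in T2 and 3.84, 5.57 and 7.55 as the lowest, median and highest of T1. NPAS2, a relative of CLOCK that pairs with BMAL1, had 5.80, 6.64, 7.19 and 7.42 in T2 and ran from 8.05 through 9.33 to 11.28 in T1. The groups did not overlap for any of the 3 genes. The 15 ranked lower genes were chosen by this same difference. The groups were apart for 11 of them, beside T2 below T1 for 2.03% of all genes tested. For all 15, T1.2 and T1.4 were among the 3 highest T1 oocytes, and T1.5 was for 14. Without T1.4 all 15 kept a lower level in T2, which the choice of genes made likely. Their log2 fold changes then ran from -4.30 to -2.45, with an adjusted p of 0.187 for each.

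**Figure D3:**
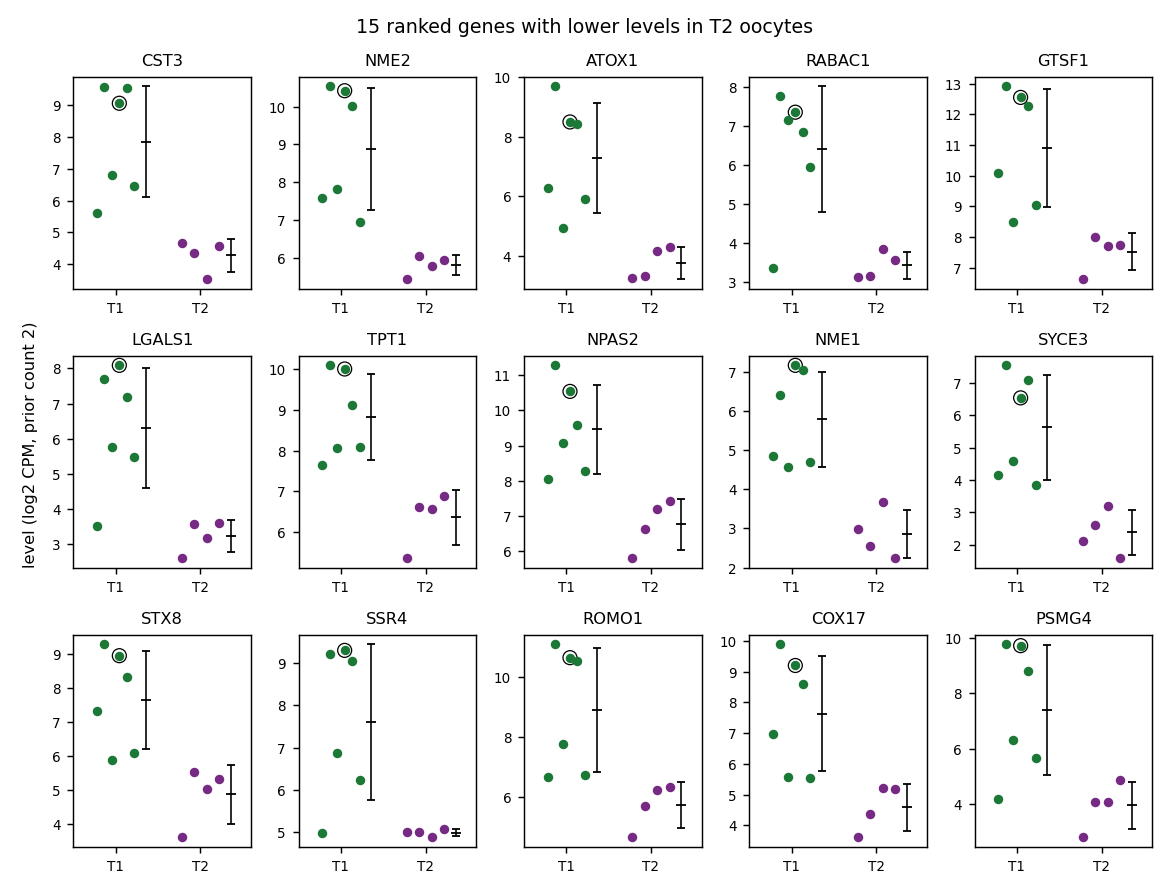
Level (log2 CPM, y axis, one scale per gene) of the 15 ranked lower genes in each T1 and T2 oocyte, with T1.4 ringed and the mean ± SD beside each group. In 11 of the 15 panels no T2 oocyte reaches the lowest T1 oocyte, and the T1 points separate into T1.2, T1.4 and T1.5 near the top and the others below in most panels. These genes were chosen by the same difference that the plot displays.

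Higher levels in T2 were smaller in size among well-expressed genes. PLSCR2, of the phospholipid scramblase family that moves lipids across membranes, ranked first of the higher genes. It had 69, 43, 21 and 34 counts in T2 and 0 to 4 counts in the T1 oocytes. Its log2 CPM was 5.95, 3.92, 3.73 and 3.98 in T2 and at most 1.45 in T1, a log2 fold change of 5.20 ± 1.14 (SE) that rests on few T1 counts. TMEM100, a membrane protein known from endothelial cells, had 27, 38, 11 and 18 counts in T2 and 0 to 5 in T1. ABHD3, a phospholipase that acts on phosphatidylcholines, had 130, 36, 22 and 53 counts in T2 and 0 to 35 in T1. On log2 CPM no T2 oocyte overlapped with T1 for any of the 3 genes, and the low counts limit the precision of their fold changes.

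Among the higher genes with many counts were a lipid kinase, a phosphatase inhibitor and a splicing factor. PIK3C2A, a class II phosphoinositide 3-kinase of the endocytic pathway, had 8.13, 8.48, 8.28 and 8.11 log2 CPM in T2 and ran from 4.95 through 6.64 to 7.25 in T1, a log2 fold change of 1.64 ± 0.43 (SE, adjusted p = 0.113 by the edgeR quasi-likelihood test). CIP2A inhibits protein phosphatase 2A and acts in mitosis. It had 9.67, 10.15, 10.00 and 9.58 in T2 and ran from 6.60 through 8.10 to 9.02 in T1. SF3B1, the largest subunit of the SF3B complex that binds the branch point, had 9.22, 9.16, 9.40 and 8.84 in T2 and ran from 7.06 through 7.70 to 8.50 in T1. All T2 oocytes were above all T1 oocytes for these 3 genes.

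USP33, a deubiquitinase, was nearly constant in T2, at 8.70, 8.74, 8.68 and 8.83 log2 CPM, above the 6.49 to 8.09 of T1. MXD1, which pairs with MAX and represses transcription, had 6.09, 6.38, 6.84 and 6.66 in T2 and 4.88 to 5.67 in T1. COG6, a subunit of the conserved oligomeric Golgi complex, had 9.03, 9.05, 8.89 and 8.16 in T2, and T1.1 with 8.53 was the one T1 oocyte within that range. GPATCH2, a protein with a G-patch domain, overlapped through T2.2, which had 6.42 while the other T2 oocytes had 8.40 to 8.83. The log2 fold changes of these 4 genes lay between 1.15 and 1.67. The 10 ranked higher genes were chosen by this same difference. The groups were apart for 8 of them, beside T2 above T1 for 1.76% of all genes tested. Of the 10, T1.6 was among the 3 highest T1 oocytes for 9 genes and T1.1 for 7. Their adjusted p ranged from 0.113 to 0.207, and from 0.187 to 0.270 without T1.4. All 10 kept the higher level in T2 without that oocyte, which the choice of genes made likely.

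**Figure D4:**
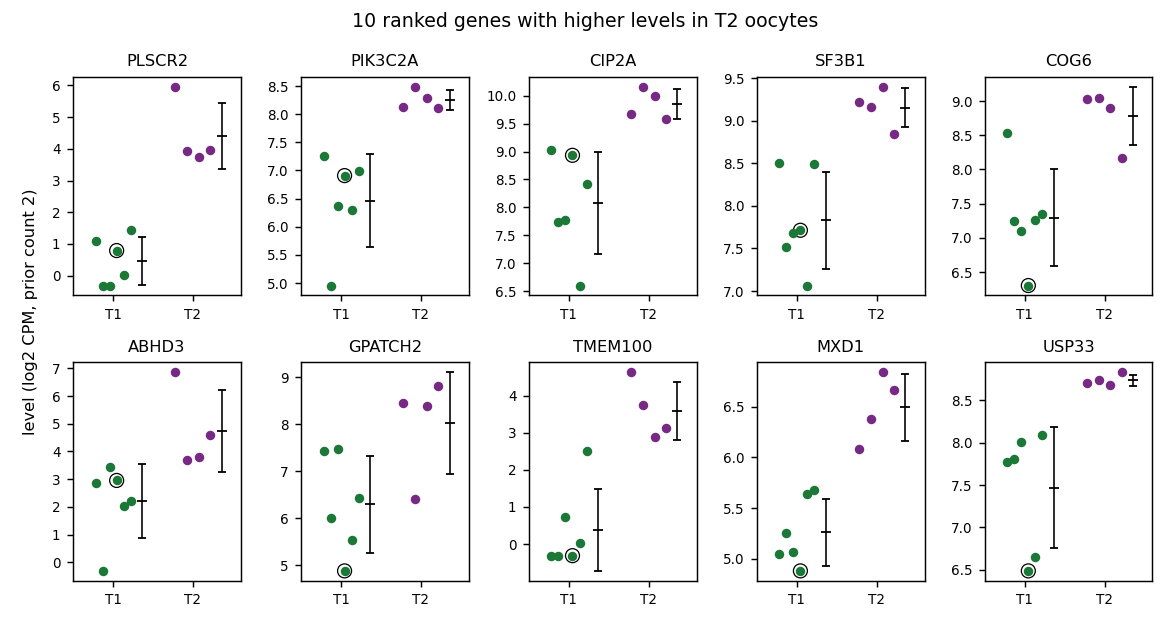
Level (log2 CPM, y axis, one scale per gene) of the 10 ranked higher genes in each T1 and T2 oocyte, with T1.4 ringed and the mean ± SD beside each group. The T2 points lie above every T1 point for 8 of the 10 genes, and overlap is seen for COG6 and GPATCH2. These genes were chosen by the same difference that the plot displays.

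Gene functions were then described through 23 lists, of which 22 had members tested. The named share of a list was 80% or more for 4 lists and less for 19, so the counts below describe the members with a symbol and not the whole complex or pathway. Members with a symbol were also selected partly on these same oocytes, and the part of that selection in the list medians was not tested. The median log2 fold change was -0.02 over the 1457 named genes outside the ribosomal protein and respiratory chain genes. No member of any list passed the test. Counts of members at an unadjusted p under 0.05 are to be read beside 8.92% lower and 3.19% higher over all genes tested. Counts of lower and higher members stand beside a median log2 fold change of -0.03 over all genes. T2 lay wholly below T1 for 2.03% of all genes and wholly above for 1.76%.

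Antioxidant and redox genes had the lowest median log2 fold change, -2.51 over 11 tested of 30 (40.0% named), beside -0.03 over all genes. Without T1.4 the median of this list was -1.95. The mean level of the list in T1.1 was 5.66 log2 CPM, inside the 5.35 to 5.85 of T2. The other T1 oocytes had 6.34 to 8.15. The 6 genes at an unadjusted p under 0.05, all lower in T2, were ATOX1, ROMO1, PARK7, GSTM3, PRDX1 and PRDX4. GSTM3, a glutathione transferase, took the largest share of counts of any gene in T1.2, 5.03%, and also in T1.5. It had 10.35, 11.76, 10.66 and 10.87 log2 CPM in T2, and 12.08, 13.90 and 16.07 as the lowest, median and highest of T1, without overlap. The peroxiredoxin PRDX1, which reduces hydrogen peroxide, had 9.51, 9.34, 8.94 and 8.89 in T2 and 9.50, 11.44 and 14.27 in T1. For PRDX1 the groups met at T2.1, while T1.2, T1.4 and T1.5 had 13.14 to 14.27. PARK7, a redox-sensitive chaperone, had 6.28, 5.95, 6.21 and 6.55 in T2 and at least 6.99 in T1. KEAP1, the sensor that holds the antioxidant regulator NRF2 in check, had the highest value of the list, 1.65 ± 1.18 (log2 fold change, SE).

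Endoplasmic reticulum genes for translocation and glycosylation had lower levels in 20 of 22 tested members, a median log2 fold change of -1.30 (61.5% of the list named). The 9 at an unadjusted p under 0.05 were all lower. They were the signal peptidase subunits SEC11C and SPCS3, the translocon-associated SSR4, TMEM208 of the targeting pathway, DPM3 and TMEM258, which take part in glycosylation, EMC10 of the membrane protein insertion complex, SRP68 of the signal recognition particle and the chaperone regulator DNAJC3. SEC11C had 6.45, 6.23, 6.14 and 6.58 log2 CPM in T2 and 7.06, 8.89 and 11.39 as the lowest, median and highest of T1. Its T2 oocytes were all below T1, and it was the only tested member for which this held (1 of 22). The groups overlapped for the other members listed here. The mean level of the list in T1.1 was 5.13 log2 CPM, inside the 4.73 to 5.73 of T2. The other T1 oocytes had 5.76 to 7.06. The members of this list with the highest levels, KTN1, STT3B and SEC62, had log2 fold changes of 0.69 ± 0.44, -0.04 ± 0.45 and -0.15 ± 0.45 (SE), and their groups overlapped too.

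Mitochondrial lists other than the respiratory chain subunits leaned the same way. The import list also holds ATP5IF1, which was counted above with the respiratory chain and ATP synthase genes. The mitochondrial ribosome had lower levels in 14 of 15 tested members, with a median log2 fold change of -1.17, and 4 (MRPS14, MRPS26, MRPS18C and MRPS21) were lower at an unadjusted p under 0.05. MRPS14 had 7.12, 7.20, 7.55 and 7.38 log2 CPM in T2 and 7.59, 9.80 and 11.55 as the lowest, median and highest of T1. It was the only tested member of the mitochondrial ribosome with T2 wholly below T1 (1 of 15). The mean level of that list in T1.1 was 3.59 log2 CPM, below the 4.07 to 4.86 of T2. The other T1 oocytes had 5.02 to 6.28. Genes of mitochondrial import, dynamics and assembly were mixed, with 18 lower and 11 higher of 29 tested and a median of -0.45. Of them 11 were lower at an unadjusted p under 0.05, among these the assembly factors COX17, PET100, COX14 and COA8, the import proteins TIMM10 and PAM16, the ATP synthase inhibitor ATP5IF1 and the fission receptor MFF. MTFR1 and CLPX, also at high levels in the same list, had log2 fold changes of 0.71 ± 0.43 and 0.56 ± 0.41 (SE). The median of this list was -0.18 without T1.4, -1.08 without T1.1 and -1.03 without T2.2, so it depended on single oocytes.

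Proteasome genes had a median log2 fold change of -0.44, with 11 of 15 tested members lower (43.2% named). The 3 at an unadjusted p under 0.05 were the assembly chaperones PSMG4 and POMP and the core subunit PSMB4, and the other 12 members lay between -1.45 (ADRM1, a ubiquitin receptor of the regulatory particle) and 0.49 (PSMD2). PSMB4 had 5.80, 6.36, 6.21 and 6.84 log2 CPM in T2, where T1.1 had 5.21 and the other T1 oocytes 8.02 to 10.55.

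Lists of chromosome and cell cycle genes had small positive medians. Cohesin, condensin and SMC genes had the highest median of all lists, 0.52 over 10 tested (33.3% named), with 9 of 10 higher in T2 and 0 in either direction at an unadjusted p under 0.05. PDS5B, a regulator of cohesin on chromosomes, had 7.30, 8.09, 7.67 and 7.26 log2 CPM in T2 and 2.24, 4.97 and 7.90 as the lowest, median and highest of T1. The T1 oocytes thus spanned a wide range that T1.1 brought up into that of T2. SMC3, a core subunit of cohesin, had 10.51, 10.19, 10.55 and 9.76 in T2 and 8.31 to 11.09 in T1, with full overlap.

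Kinetochore and spindle genes had a median of 0.21 over 23 tested, with 15 higher in T2, and the 3 at an unadjusted p under 0.05 were all lower. CENPS, a histone-fold protein of the inner kinetochore, had 5.86, 6.96, 6.52 and 7.04 log2 CPM in T2 and 7.09, 8.53 and 8.93 as the lowest, median and highest of T1. PLK1, the polo kinase of spindle assembly and nuclear breakdown, had 4.46, 4.52, 4.26 and 4.45 in T2 and at least 4.93 in T1. Both genes were apart between the groups, with log2 fold changes of -1.76 ± 0.48 and -1.28 ± 0.54 (SE). SPC24 of the NDC80 complex had no count in T2.1 and 3.60 to 3.85 log2 CPM in the other T2 oocytes, and 3.22 to 8.18 in T1. The members with the highest levels, KIF20B, CENPF and DLGAP5, had log2 fold changes of 0.54 ± 0.45, 0.46 ± 0.41 and 0.36 ± 0.42 (SE).

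Among meiotic cell cycle genes, 12 of 14 tested were higher in T2 with a median of 0.27 (33.3% named), and the one at an unadjusted p under 0.05 was SKP1, lower in T2 with a log2 fold change of -1.60 ± 0.69 (SE). SKP1 is the adaptor of SCF ubiquitin ligases. It had 10.49, 11.31, 11.02 and 10.87 log2 CPM in T2, inside the 9.86 to 13.66 of T1. CDC20, which activates the anaphase-promoting complex, had 8.51 in T2.1 and 5.09 to 5.39 in the other T2 oocytes, against 2.17 to 7.34 in T1. CDC27, a core subunit of that complex, differed by 0.33 ± 0.38 (SE).

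Maternal mRNA storage, tailing and decay had 18 members tested (35.3% named), 13 of them higher, with a median of 0.28. DIS3, the exosome nuclease, was higher at an unadjusted p under 0.05, with 6.58, 8.51, 7.79 and 8.04 log2 CPM in T2 and 5.08 to 7.63 in T1. The deadenylase subunits CNOT6L and CNOT6, the exonuclease XRN1 and the terminal uridyltransferase TUT7 had log2 fold changes of -0.02 ± 0.38, 0.65 ± 0.56, 0.72 ± 0.75 and 0.75 ± 0.69 (SE). Their groups overlapped.

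Splicing genes were near the background, with a median of 0.15 over 25 tested, which changed sign with single oocytes left out. At an unadjusted p under 0.05 SF3B1 and AQR were higher and CENATAC, LSM7 and SF3B6 were lower. CENATAC of the minor spliceosome had 4.86, 6.82, 7.30 and 7.06 log2 CPM in T2 and 7.62 to 10.79 in T1, without overlap. SF3B6 and SF3B1 belong to the same complex. SF3B6 had 7.42, 9.06, 9.05 and 8.74 in T2 and 8.62 to 11.18 in T1.

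Ubiquitin ligases and conjugating enzymes had 35 members tested (95.0% named) and a median of 0.23. The ligase RNF181 and the ligase adaptor SKP1 were lower and the ligases MARCHF7, RNF2 and RNF13 were higher at an unadjusted p under 0.05. RNF181 had 3.27, 3.86, 4.31 and 4.16 log2 CPM in T2 and at least 4.42 in T1, and MARCHF7 had 10.08, 9.89, 9.17 and 9.02 in T2 and 6.33 to 9.18 in T1. Of 19 deubiquitinases, most of them ubiquitin-specific proteases beside OTUB1, OTUD4, MYSM1 and ZUP1 of other families (87.0% named, median 0.02, or -0.02 with RLE factors) USP33 was the one at an unadjusted p under 0.05. USP24 was also apart between groups, with 4.14 to 5.53 in T2 and at most 4.02 in T1.

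Chromatin remodelling and histone modification genes (46 tested, 89.1% named) had a median of 0.03 (-0.03 with RLE factors), with SAP18 lower and RNF2 higher at an unadjusted p under 0.05. SAP18, of the SIN3 corepressor, had 6.45, 6.35, 6.51 and 6.65 log2 CPM in T2. In T1 it had 6.53 to 6.91 in T1.1, T1.3 and T1.6 and 9.19 to 10.63 in T1.2, T1.4 and T1.5. RYBP did not reach that p but was apart between groups, with 6.54 to 6.78 in T2 and at most 6.29 in T1. DNA repair genes (35 tested, 75.0% named) had a median of 0.32, and HUS1, of the 9-1-1 checkpoint clamp, was lower at -2.57 ± 0.84 (log2 fold change, SE). BRCA2, RIF1 and RBBP8, at the highest levels of that list, differed by 0.60 ± 0.41, 0.55 ± 0.46 and 0.65 ± 0.41 (SE).

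Golgi, endosome and vesicle genes, all 55 of them named and 52 tested, had a median of 0.27, with 36 higher in T2. STX8 and BLOC1S1 were lower and COG6 and SEC23A higher at an unadjusted p under 0.05. BLOC1S1, shared by complexes of lysosome-related organelles, had 1.36, 2.84, 3.09 and 3.12 log2 CPM in T2 and 3.27 to 7.62 in T1. Actin, tubulin and adhesion genes (33 tested, 76.1% named) had a median of 0.16, and the 4 lower at an unadjusted p under 0.05 were DYNLL1, TBCA, DSTN and TUBA1C. DSTN, which severs actin filaments, had 9.17, 10.82, 10.36 and 10.06 in T2 and 10.02 to 13.42 in T1. The kinesin heavy chain KIF5B and the integrin subunit ITGB1 were higher, and KIF5B was apart with 8.26 to 8.94 in T2 and at most 7.98 in T1. Centrosome and centriole genes (23 tested, 70.6% named) had a median of 0.26, with CETN4 lower at -1.50 ± 0.64 (SE). RAS, PI3K and TGF-beta/BMP genes (24 tested, 65.0% named) had a median of 0.33, with PIK3C2A higher and ERBB2 lower at an unadjusted p under 0.05. Cholesterol synthesis had 5 genes tested, a median of -0.34 and 0 at an unadjusted p under 0.05.

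**Figure D5:**
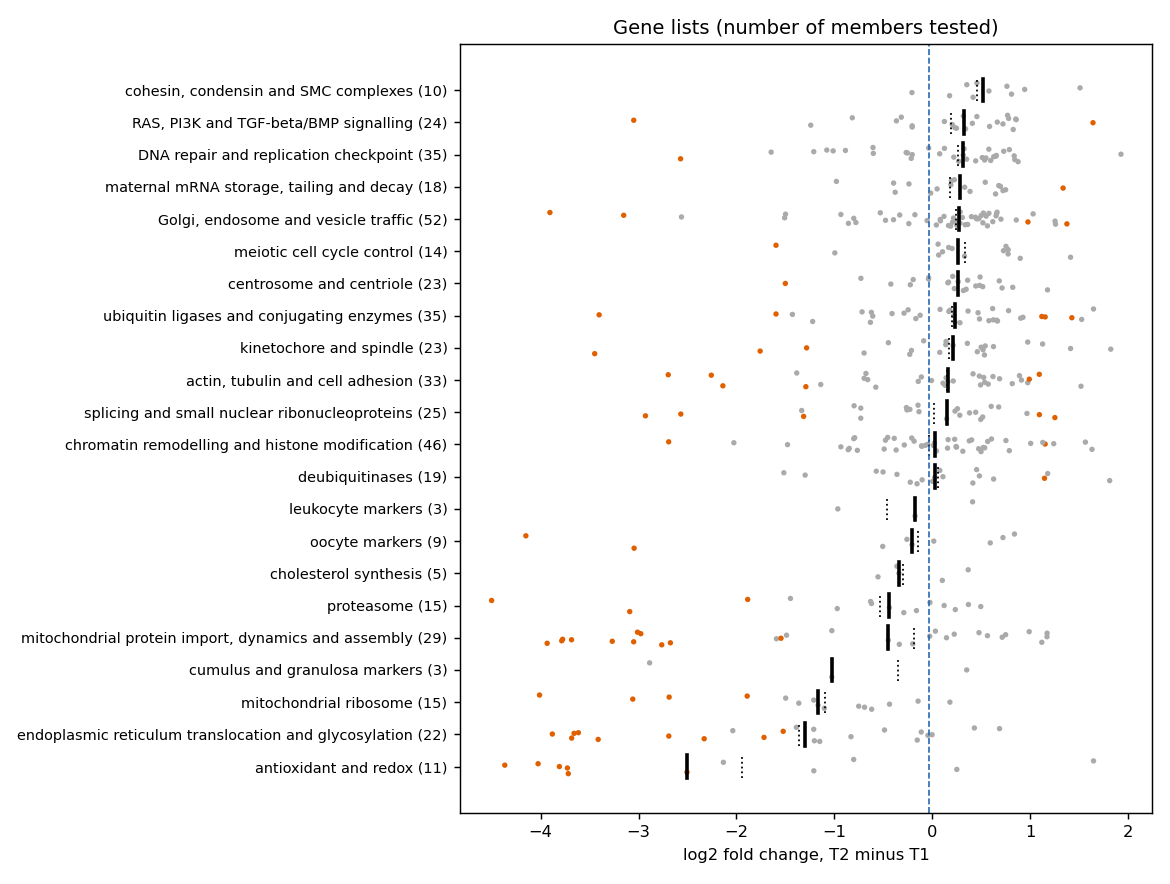
Log2 fold change (T2 minus T1, x axis) of every tested member of 22 gene lists (y axis, number tested in brackets). Orange points had an unadjusted p under 0.05, solid bars are list medians with 10 oocytes, dotted bars those without T1.4, and the dashed line is the median of all genes, -0.03. Medians run from -2.51 for antioxidant genes to 0.52 for cohesin genes, and members of a list scatter more widely than the medians differ in most lists.

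The identity of the cells was checked on markers. Of 31 oocyte markers 9 could be named, and all 9 were tested. Summed, they held between 5144 and 18141 CPM of the raw total in T1 and between 5325 and 17429 in T2. OOSP2, secreted by oocytes, had 13.09, 11.24, 12.47 and 12.39 log2 CPM in T2 and 10.92 to 14.11 in T1, and NLRP5 of the subcortical maternal complex had counts in all 10 oocytes. GTSF1 and FIGLA were the 2 lower at an unadjusted p under 0.05. FIGLA, the oocyte transcription factor of primordial follicles, had 4.28, 8.52, 8.73 and 7.79 in T2 and 6.36 to 12.19 in T1.

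Oocytes had been stripped of their cumulus cells by pipetting, and only 3 of 26 cumulus and granulosa markers could be named. Their summed level ranged from 107 to 433 CPM in T1 and from 238 to 379 in T2. Of these, STAR had 6.75 to 8.23 log2 CPM in T1 and 7.48 to 8.45 in T2, and CD44 had counts in 4 of 10 oocytes. HSD11B2 had counts in all 10, from 39 to 367 in T1 and from 18 to 64 in T2. For leukocytes 4 of 21 markers were named, with a summed level from 36.9 to 1182 CPM in T1 and from 140 to 721 in T2. SRGN ran from 0 counts in T1.4 to 3819 in T1.1, and from 9 in T2.1 to 1308 in T2.4. IRF8 had counts in all 10 oocytes, from 69 to 1035 in T1 and from 145 to 476 in T2. None of the tested cumulus or leukocyte markers had an unadjusted p under 0.05, and 0 of 9 erythrocyte markers could be named. The most specific markers of these cells, without a symbol here, were not analysed, so the part of other cells in the results was not tested.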

How the data were processed

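Transcripts of single DF oocytes were measured by Smart-seq2 and single-end sequencing. Reads were trimmed by the authors with Trim Galore (version 0.6.6 by the submitters' processing notes) and aligned to ARS-UCD1.2 with HISAT2. The values they deposited are unnormalised counts of reads on each Ensembl gene from SeqMonk. The release of the annotation, the use of strand and the handling of duplicate reads are not given in the sources used here. Without known strand, overlapping genes on opposite strands cannot be told apart, and near-identical copies may share reads. The deposited table holds 21218 genes, and all of its columns were matched to samples by name.

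From the counts of the 10 T1 and T2 oocytes, 8748 genes passed filterByExpr. They were tested by the quasi-likelihood method of edgeR 4.0.16 in R 4.3.3, with TMM factors and Benjamini-Hochberg adjustment and called at an adjusted p under 0.05 and an absolute log2 fold change above 1.5. The SE of a log2 fold change was derived from that test, as its absolute value divided by the square root of the F statistic. The likelihood ratio test, DESeq2 (version 1.42.0), other scalings, filters and sample sets were alternatives. Exact permutation tests and list medians were computed in Python 3.11.15 (numpy 2.4.6, scipy 1.17.1, pandas 2.3.3). The procedure was tested on simulated counts with the same dispersion in both groups. Spread differed between T1 and T2, so the simulation does not show how the test behaves under that difference. Each oocyte has its own animal, so p-values measure the spread between animals as sampled here, and no pair of oocytes shared more than 9.30% of its counts gene by gene.

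Ribosomal protein, respiratory chain and ATP synthase genes were left out of the ranked genes. The text names the 15 lower and 10 higher remaining genes with a symbol and the smallest p. List members were drawn from the 3 with the highest level and the 3 with the smallest p. Markers were drawn from those at 0 or highest. Not all of these members and markers are named, and no stated rule set the choice among them. Other members are named where a count of lower or higher genes is given, or where they are apart between the groups, and these were chosen after their values were seen. The comparison, the lists and the rule were chosen with earlier results of these data known. Symbols came from the study's own list of genes, which pairs 1741 of 1829 identifiers with one. Sequences are not shown, since none was at hand for these identifiers.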

Additional observations from a re-analysis of the deposited data

Results flagged for a closer look

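For 2 of 54 combinations of a group and a measure, 1 oocyte lay far from the others, where chance gives about 1 in 20. PLSCR2 stood at 5.95 log2 CPM in T2.1 and at 3.73 to 3.98 in the other T2 oocytes, a gap of 0.89 of the range of the group (critical value 0.829 for 4 oocytes). TMEM100 stood at 2.49 log2 CPM in T1.6 and at most 0.73 in the other T1 oocytes, a gap of 0.629 of the range (critical value 0.625 for 6 oocytes), on 5 counts.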

How the results depend on the processing

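The number of calls depended on the test, the filter and 1 oocyte. With TMM, RLE or upper-quartile factors, total counts alone, no fold threshold or all 3 time points in the fit (11 or 15 oocytes), the quasi-likelihood test called 0 genes. It called 110 lower and 1 higher without a filter on low counts, over 14204 genes, and 219 lower and 4 higher with at least 10 counts in every oocyte, over 3890 genes. The likelihood ratio test called 349 lower and 22 higher (285 and 27 without T1.4), and DESeq2 527 and 22 (446 and 34 without T1.4). The fits without T1.4 by those 2 tools were chosen after seeing the data. When single oocytes were left out, calls ran from 0 to 334 lower and from 0 to 63 higher, and those were the fits without T1.1. At an unadjusted p under 0.05 the lower genes then ranged from 623 to 980 and the higher genes from 162 to 604, the lowest without T2.2 (168 without T2.1) and the highest without T1.1. The higher genes at an unadjusted p under 0.05 numbered 38 with all 15 oocytes and 675 without a filter. The cause of these differences was not tested.

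Replicate numbers only name the oocytes, each from its own animal. With the numbers 1 to 4 as a replicate block, 8 oocytes gave 0 calls, and 461 lower and 245 higher genes at an unadjusted p under 0.05. Deviations of same-numbered oocytes correlated between 0.010 and 0.163, and 2 of 4 T2 oocytes correlated best with their own number.

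All 25 ranked genes kept their direction in every fit that gave a value. They had been chosen by this difference and the fits share most oocytes, so the kept direction is no separate support. The calls below are of the same 25 genes. In 124 of 542 such values they passed the call, all 15 lower ones by the likelihood ratio test, DESeq2, without a filter and without T1.1. Scalings moved the median of all genes between -0.08 and 0.03. Of 308 list medians under other settings, 305 moved by less than the pooled SD between oocytes of the mean level of the list. That bound is another quantity than the median and was wide for some lists, with an SD in T1 of 1.01 for antioxidant genes and 1.41 for cholesterol synthesis. It therefore says little about stability. Of the 308, 19 changed sign, all in lists whose median was near 0 or that had 5 or fewer genes tested. Single oocytes left out set the splicing list between -0.14 (without T2.4) and 0.27 (without T1.1), and mitochondrial import between -1.08 (without T1.1) and -0.18 (without T1.4). Depth limits genes such as PLSCR2 and TMEM100, with 0 to 5 counts in T1 oocytes.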
